A study of Mus musculus with 56 samples.

Results

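Expression in the lung was compared between 24 hours and 18 hours after an injection of oleic acid (OA) in mice. The comparison took the OA microarrays whose titles give 18H or 24H, which are 11 of the 56 samples of the series. At 18 hours 5 microarrays of 3 mice (P10L1, P11L1 and P12L1) were hybridized, and at 24 hours 6 microarrays of 3 mice (P6L1, P7L1 and P8L1). The whole series holds 60 microarrays of 35 mice killed 1, 1.5, 3, 4, 18 or 24 hours after OA or physiological serum.

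The mice of both groups were 7-week-old female C57Bl/6J animals. They were anaesthetized with xylazine and ketamine and received 20 µl of OA (1.2 µl per g of body weight) into the tail vein. Total RNA came from a whole lung of each mouse, so that epithelium, vessels, airways, blood and any adjoining tissue entered 1 sample, and fewer cells of a type and less RNA per cell cannot be told apart. The 2 groups are different animals, and neither holds an uninjected mouse. The question addressed was which genes differed between these late time points, which the study took together as 1 late stage.

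Intravenous OA injures the capillary endothelium and the alveolar epithelium and is used as a model of acute lung injury with edema. Hepatocytes make most plasma proteins, among them albumin, the vitamin D binding protein and hemopexin, and carry much of the enzymes of methionine metabolism. TEF is a transcription factor of the PAR bZIP family whose transcript follows the circadian clock in many tissues. The clock drives such genes through E-box elements, and the PAR bZIP factors bind D-box elements, one of which was described in the albumin promoter.

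Levels are log2 values normalized by the authors, and the microarrays of 1 mouse were averaged. Before normalization, the median log2 intensity of the microarrays ranged from 6.755 to 8.745 at 18 hours and from 8.492 to 9.093 at 24 hours. Of the named clones, 20.6% to 29.1% per microarray exceeded the 95th percentile of the empty spots at 18 hours, against 29.5% to 54.5% at 24 hours. Clones are called bright here where the mean of the 6 mice was above the corresponding limit of 9.05, which 2608 of the 7625 named clones were. Over bright clones, the median SD was 0.196 between the 2 microarrays of a mouse, 0.162 between mice at 18 hours and 0.139 between mice at 24 hours. The first is of single microarrays and the others are of averages per mouse, which vary less, so they cannot be set against each other directly. Markers of the lung were bright, with the surfactant protein gene Sftpd between 13.39 and 13.81 and the endothelial cadherin gene Cdh5 between 12.04 and 12.45 in the 6 mice. No defining marker of alveolar type I or club cells was measured.

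Of the clones tested, 8 of 7625 clones differed between 24 and 18 hours at an adjusted p under 0.05 (limma, Benjamini-Hochberg adjustment), which is 0.105% of those tested. At 24 hours 6 of them rose (0.0787%), all bright, and 2 fell (0.0262%), both below the limit of bright clones. This contrast follows in part from the limit, which is on the mean of the 6 mice and is reached more easily by a clone that rose. At 18 hours Tef (8.62), Gc (8.48) and Mat1a (8.91) were below 9.05, as were Spon2 (8.80) and D10Bwg1364e (8.96), the 2 that fell. Without adjustment, 549 clones (7.2%) were higher and 237 (3.11%) lower at a p under 0.05. Tef, Gc, Hpxn, Gnmt and Mat1a were among the 6 that rose. In each of the 6 the 3 mice at 24 hours lay above the 3 mice at 18 hours, as in 10.6% of all clones, while in 6.07% of all clones they lay below. Every single microarray of the 6 clones was apart in the same way, which follows largely from their choice by p on averages of these microarrays. Genes with several clones are given by their brightest clone where nothing else is said.

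Tef was at 8.64, 8.72 and 8.50 in the mice at 18 hours and at 10.03, 10.16 and 9.90 in those at 24 hours. Its level was thus 8.62 ± 0.11 against 10.03 ± 0.13 (SD, n = 3 mice each), a difference of 1.41 on the log2 scale or 2.66-fold (SE 0.12, adjusted p = 0.0167). A second Tef clone was at 8.69 ± 0.25 and 9.56 ± 0.03, also without overlap, with a difference of 0.88 (SE 0.14, adjusted p = 0.0985).

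Gc, which encodes the vitamin D binding protein of plasma, was at 8.14, 8.62 and 8.69 at 18 hours and at 10.24, 10.28 and 10.17 at 24 hours. Its difference of 1.75 (SE 0.16, adjusted p = 0.0167) corresponds to 3.37-fold and was the largest of the 6. Hpxn (now Hpx), the gene of the heme scavenger hemopexin, was at 9.51, 9.54 and 9.32 and then at 10.48, 10.68 and 10.52. The difference was 1.10 (SE 0.12, adjusted p = 0.0301), or 2.14-fold.

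Gnmt and Mat1a act in the same pathway, since the liver methionine adenosyltransferase MAT1A makes S-adenosylmethionine and glycine N-methyltransferase uses it. Gnmt was at 9.59, 9.81 and 9.84 at 18 hours and at 10.88, 11.10 and 10.71 at 24 hours, a difference of 1.15 (SE 0.14, adjusted p = 0.0469). Mat1a was at 8.75, 8.85 and 9.12 and then at 9.89, 10.03 and 9.90, a difference of 1.03 (SE 0.13, adjusted p = 0.0469).

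**Figure D1:**
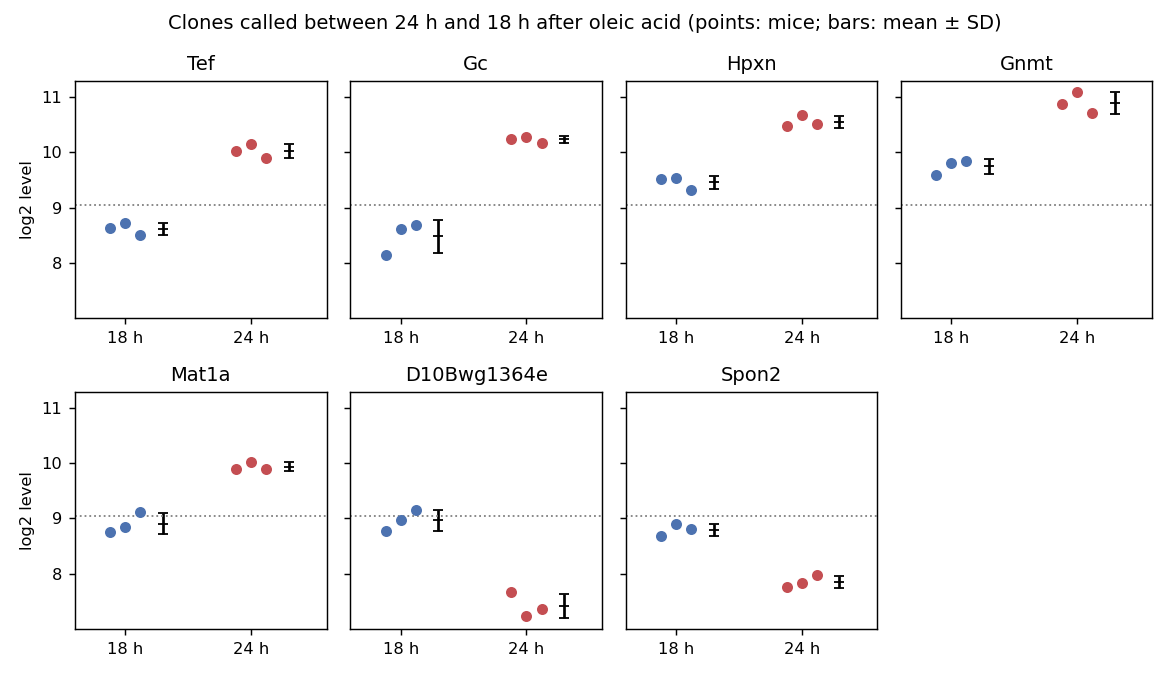
Log2 level of 7 of the 8 clones called between 24 and 18 hours, with 1 point per mouse (18 hours left, 24 hours right) and bars for the mean ± SD of 3 mice. The dotted line is the limit of bright clones at 9.05, and D10Bwg1364e and Spon2, the 2 clones that fell, lie below it at 24 hours.

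The calls depended on the mice used. Leaving out P6L1, P7L1 or P8L1 left 0, 0 and 1 called clones (653, 473 and 606 at an unadjusted p under 0.05), and leaving out P10L1, P11L1 or P12L1 left 1, 4 and 16. Over the 17 other settings tried, the difference of Tef stayed between 1.21 and 1.54 and that of Gc between 1.58 and 1.86. The calls held less often, for Tef in 10 of the 17, for Gc in 11, for Hpxn in 8 and for Gnmt and Mat1a in 6 each.

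Spon2, which encodes the matrix protein spondin 2, was at 8.68, 8.89 and 8.81 at 18 hours and at 7.76, 7.83 and 7.97 at 24 hours. It fell by 0.94 (SE 0.12, adjusted p = 0.0469), with no overlap between single microarrays. The transcript D10Bwg1364e was at 8.77, 8.97 and 9.15 and then at 7.66, 7.23 and 7.36, a difference of -1.54 (SE 0.16, adjusted p = 0.0240). At 24 hours, however, 1 microarray of each mouse gave D10Bwg1364e a level of 8.80 to 8.98, within the range at 18 hours, and the other gave 5.48 to 6.52. Its averages at 24 hours therefore match no single microarray, and a second, brighter clone of this transcript was at 9.12 to 9.15 and 9.21 to 9.27.

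When the test was restricted to the 2608 bright clones, 18 of them (0.69%) passed, the 6 above and 12 more, all higher at 24 hours. The limit applies to the mean of all 6 mice, and 4 of the 18 (both Tef clones, Gc and Mat1a) were below it at 18 hours, so that their levels at 24 hours let them in. The same was true of 88 of the 2608 clones, and the count of 18 therefore describes the selection and supports nothing further. Among the further clones were Apoe, Ndufb7, Cyb5r3, 2 clones of Scp2, Il17ra, the second Tef clone, Cat, Tcea1, Alb1 and Ctsl. The Ctsl clone was the less bright of 2, and the brighter one did not pass. The p-values named next are those of the further clones, except that of another Scp2 clone. Over all clones the adjusted p of the 12 lay between 0.0568 and 0.102. All 12 had every microarray at 24 hours above every microarray at 18 hours. They were chosen by p on averages of these same microarrays, so this adds no support, and the matching share over all bright clones was not counted. By the averages of each mouse, the groups were apart in this direction in 14.8% of all bright clones. Alb1 (now Alb), the gene of serum albumin, was at 10.98, 11.51 and 12.17 and then at 13.30, 13.56 and 13.00, a difference of 1.73 (SE 0.29, adjusted p = 0.0985 over all clones). Apoe, the gene of an apolipoprotein that macrophages also make, was at 11.78 ± 0.15 and 12.74 ± 0.16. Cyb5r3, the cytochrome b5 reductase that serves fatty acid desaturation and cholesterol synthesis, was at 10.69, 11.00 and 11.55 and then at 12.27, 12.80 and 12.80, a difference of 1.54. Cat, the gene of the peroxide-degrading catalase, was at 10.65, 10.52 and 10.50 and then at 11.15, 11.31 and 11.46, a difference of 0.75. Scp2, which carries sterols and acyl chains into peroxisomal oxidation, differed by 0.65 and 0.72 in these clones, while another clone of the gene overlapped (10.05 to 10.44 and 10.27 to 11.56, adjusted p = 0.439). Second clones of Ndufb7 and Il17ra overlapped too. Lists of lipid genes lay near the 10.4% higher and 6.6% lower of all genes. Of 18 lipid genes named by the study 1 (5.56%) was apart and higher and 2 (11.1%) lower, with a median of 0.052. The counts were 4 (9.76%) and 3 (7.32%) of 41 fatty acid oxidation genes, and 5 (14.3%) and 3 (8.57%) of 35 fatty acid and cholesterol synthesis genes.

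**Figure D2:**
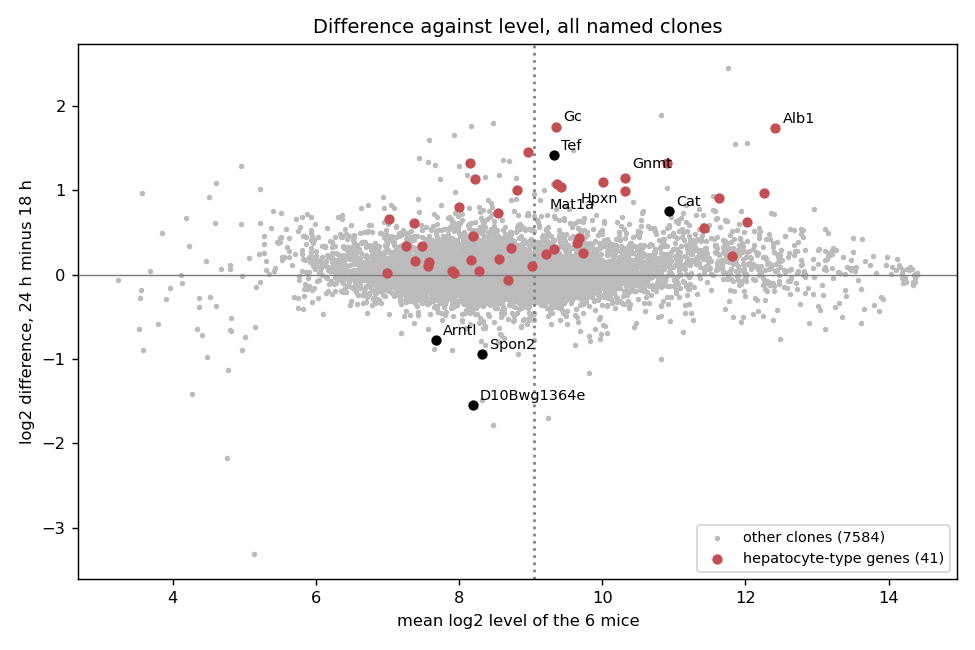
Log2 difference between 24 and 18 hours (3 mice each) against the mean log2 level of the 6 mice, for 7625 clones. Red points are the brightest clones of 41 hepatocyte-type genes, labelled black points are other clones named in the text, and the dotted line is the limit of bright clones. Of the 41, 24 had groups of mice that did not overlap, all of them higher at 24 hours.

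Several of these genes are typical of the hepatocyte. A list of such genes was therefore drawn up after the values had been seen, so its counts describe the pattern and test nothing. It holds plasma proteins, apolipoproteins, coagulation factors and enzymes of the liver, of which 41 genes were measured and 18 were bright. In 24 of the 41 the mice at 24 hours were all above those at 18 hours, and in 0 they were all below, against 10.4% and 6.6% of all 5883 genes, each taken by its brightest clone. The median difference of the list was 0.453 against 0.017 over all genes. Of its members 5 passed the test, among them Gc, Hpxn, Gnmt and Mat1a.

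Values were alike in size for several members that did not pass. Apoh, apolipoprotein H, was at 7.57, 8.38 and 8.76 at 18 hours and at 9.50, 9.72 and 9.84 at 24 hours (adjusted p = 0.179). Serpinc1, the gene of antithrombin, was at 6.86, 7.62 and 8.00 and then at 8.53, 9.05 and 8.87 (adjusted p = 0.213), and Fga, the fibrinogen alpha chain, at 8.64, 8.34 and 9.51 and then at 9.72, 10.20 and 9.79 (adjusted p = 0.332). Trf, transferrin, was at 11.18 ± 0.40 and 12.09 ± 0.11 (adjusted p = 0.220). Other members overlapped, among them Apoc1 (11.27 to 11.99 and 11.76 to 12.23), Ttr (8.82 to 9.06 and 8.54 to 9.45) and Ahsg (7.16 to 7.40 and 7.37 to 7.59). The mean level over the 41 genes was 8.69 to 8.94 in the mice at 18 hours and 9.37 to 9.47 in those at 24 hours.

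Whether RNA of liver tissue entered the lung samples was not tested. Of the defining liver markers only Alb1 was measured, and it was bright in every mouse of both groups. Without the 2 dim microarrays at 18 hours, which removes P12L1 and 1 microarray of P10L1, 28 of the 41 genes were apart and higher and 0 lower, with a median of 0.584. Over all genes the shares rose as well with the smaller group, to 14.2% higher and 10.2% lower. With median centring or the fitted signal in place of the authors' values, the median was 0.435 and 0.606.

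The sequences upstream of Tef, Gc and Alb are shown because the first 2 had the lowest adjusted p and because a D-box was described in the albumin promoter. They are the 250 bases before the start of the RefSeq transcript in the build GRCm38.p6, 5′ to 3′ on the strand of the gene, with the motifs found by the search in capitals. Tef lies on chr15:81802423-81802672 (plus strand), Gc on chr5:89457899-89458148 (minus strand) and Alb on chr5:90460620-90460869 (plus strand).
Tef: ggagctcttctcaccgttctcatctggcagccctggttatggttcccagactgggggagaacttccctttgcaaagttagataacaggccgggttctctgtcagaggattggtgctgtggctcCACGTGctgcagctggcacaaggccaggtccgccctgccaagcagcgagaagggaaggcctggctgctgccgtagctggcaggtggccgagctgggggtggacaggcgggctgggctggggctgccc
Gc: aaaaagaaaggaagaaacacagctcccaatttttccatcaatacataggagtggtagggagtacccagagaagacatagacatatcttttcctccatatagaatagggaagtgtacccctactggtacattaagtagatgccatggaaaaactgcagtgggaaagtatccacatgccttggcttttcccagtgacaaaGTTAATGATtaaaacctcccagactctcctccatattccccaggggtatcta
Alb: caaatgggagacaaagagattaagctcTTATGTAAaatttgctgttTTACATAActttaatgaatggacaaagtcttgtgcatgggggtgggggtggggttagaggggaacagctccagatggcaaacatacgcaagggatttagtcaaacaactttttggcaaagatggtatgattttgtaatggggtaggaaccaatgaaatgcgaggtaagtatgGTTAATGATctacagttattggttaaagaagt

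The search covered both strands for the D-box TTANGTAA, the HNF1 half-site GTTAATNAT and the E-box CACGTG. They do not overlap in these windows. Tef held 1 E-box in this window and 1 in that of its other annotated start, and Gc held 1 HNF1 half-site. Alb held 2 matches to these D-box letters and 1 HNF1 half-site. Whether either match is the D-box described in the albumin promoter was not tested, and other forms of the D-box were not searched. The windows of Hpx and Gnmt held none of the 3. Of all 32851 promoter windows of 250 bases, 2.06% held the D-box, 0.737% the HNF1 half-site and 6.02% the E-box.

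Among the other genes of the circadian clock, the values of the core activator Arntl lay opposite to those of Tef. Arntl was at 8.26, 8.00 and 7.93 at 18 hours and at 7.38, 7.35 and 7.13 at 24 hours, a difference of -0.78 (SE 0.13, adjusted p = 0.102), and it was not bright. Its partner Clock was at 9.77, 9.74 and 9.73 and then at 9.55, 9.37 and 9.61, a difference of -0.24 (adjusted p = 0.507). Gm129 (now Ciart), a repressor of the clock, was at 9.67 to 9.76 and 9.86 to 10.03, and Bhlhb2 (now Bhlhe40), another repressor, at 7.59 to 7.84 and 7.95 to 8.34, neither passing the test. Of the 13 clock genes measured, 1 passed (Tef, higher), 3 (23.1%) were apart and higher and 2 (15.4%) apart and lower, against 10.4% and 6.6% of all genes, and their median difference was -0.097 (0.04 with only the microarrays whose titles end in AO).

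**Figure D3:**
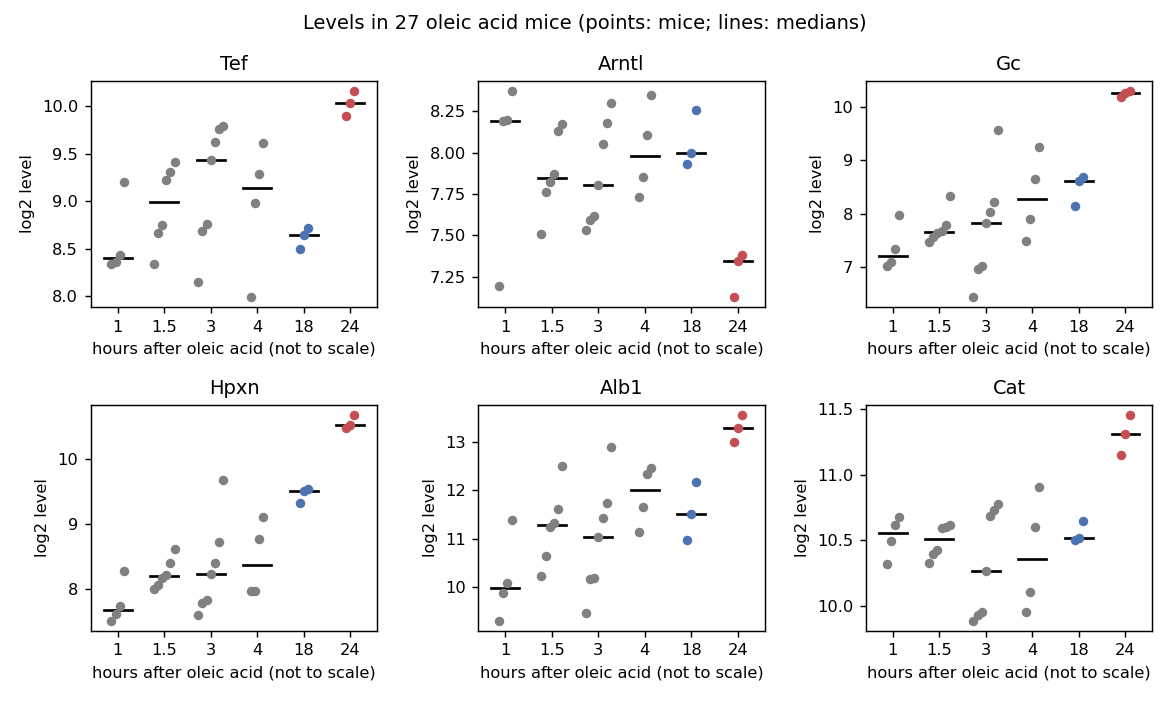
Log2 level of Tef, Arntl, Gc, Hpxn, Alb1 and Cat in 27 OA mice at 6 times, with 1 point per mouse and a line at the median of each time. The horizontal axis is not to scale. Blue points are the mice at 18 hours and red points those at 24 hours, and in Gc, Hpxn, Alb1, Cat and the Tef clone plotted no earlier mouse reached the lowest level of 24 hours.

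The mice at 1 to 4 hours, 21 in all, place these levels in the time course, as a description. Tef ran from a median of 8.40 at 1 hour to 8.99 at 1.5 hours, 9.43 at 3 hours and 9.13 at 4 hours, before the 8.64 at 18 hours and the 10.03 at 24 hours. Its lowest mouse at 24 hours, at 9.90, was above the highest earlier mouse, at 9.79. In the second Tef clone, 2 of the 21 early mice reached the lowest level of 24 hours (highest 9.68 against 9.54). Gc had medians of 7.22, 7.66, 7.82 and 8.28 at 1, 1.5, 3 and 4 hours and reached at most 9.56 before 24 hours. Hpxn had medians of 7.67, 8.19, 8.22 and 8.37 at the same times and was already at 9.51 at 18 hours.
Alb1 varied widely from mouse to mouse at the early times, from 9.46 to 12.89 at 3 hours alone. Its lowest mouse at 24 hours, at 13.00, was above all of these. At 3 hours the levels followed the L part of the mouse code, which the labels do not explain, with Alb1 at 9.46 to 10.19 in 3 L3 mice, 11.04 to 11.43 in 2 L2 mice and 11.73 to 12.89 in 2 L1 mice. Gc at 3 hours had the same order (6.45 to 7.03, 7.83 to 8.04 and 8.22 to 9.56). All mice at 18 and 24 hours carry L1, but only 3 of the 21 early mice do, so early medians and the late levels differ in this code as well as in time and the 2 cannot be told apart there. In the 3 early L1 mice Gc was at 8.22 to 9.56, Hpxn at 8.72 to 9.67 and Tef at 9.43 to 9.62.

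The antioxidant and detoxification genes also leaned to 24 hours, with no member passing the test over all clones. Of 39 measured, 15 were apart and higher and 2 apart and lower, against the 10.4% and 6.6% of all genes, and the median difference was 0.202. The median was 0.120 with median centring, 0.107 with the fitted signal and 0.149 without the 2 dim microarrays. After Cat, the leading members were Mgst1, a microsomal glutathione transferase (11.48 to 11.66 and 12.02 to 12.12), and Prdx6, the peroxiredoxin that also acts on surfactant phospholipids (12.21 to 12.44 and 12.82 to 12.99). Gclc, the catalytic subunit of glutathione synthesis, was at 9.09 to 9.64 and 9.75 to 10.27, and Nfe2l2, the transcription factor NRF2 that drives many of these genes, at 10.56 to 10.64 and 10.79 to 11.27. Hmox1, the heme oxygenase, was at 7.42, 8.04 and 8.18 and then at 8.54, 9.12 and 8.39, below the limit of bright clones. The 2 that lay lower were Prdx4 (9.45 to 9.94 and 9.12 to 9.32) and Mgst3 (8.86 to 9.20 and 8.64 to 8.73).

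The metallothioneins Mt1 and Mt2, which bind zinc and respond to glucocorticoids and metals, were small in range here beside their earlier course. Mt1 was at 9.35, 9.38 and 9.87 at 18 hours and at 9.98, 9.95 and 10.02 at 24 hours, while its median at 4 hours was 11.88. Of 16 glucocorticoid-responsive genes measured, none passed, 5 (31.2%) were apart and higher (Mt1, Mt2, Errfi1, Dusp1 and Nfkbia) and 1 (6.25%) apart and lower, against 10.4% and 6.6% of all genes. The last was the cell cycle inhibitor gene Cdkn1a (8.74 to 9.06 and 8.08 to 8.54). Their median difference was 0.253, and with median centring 3 were apart and higher and 2 lower (10.3% and 6.83% over all genes).

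**Figure D4:**
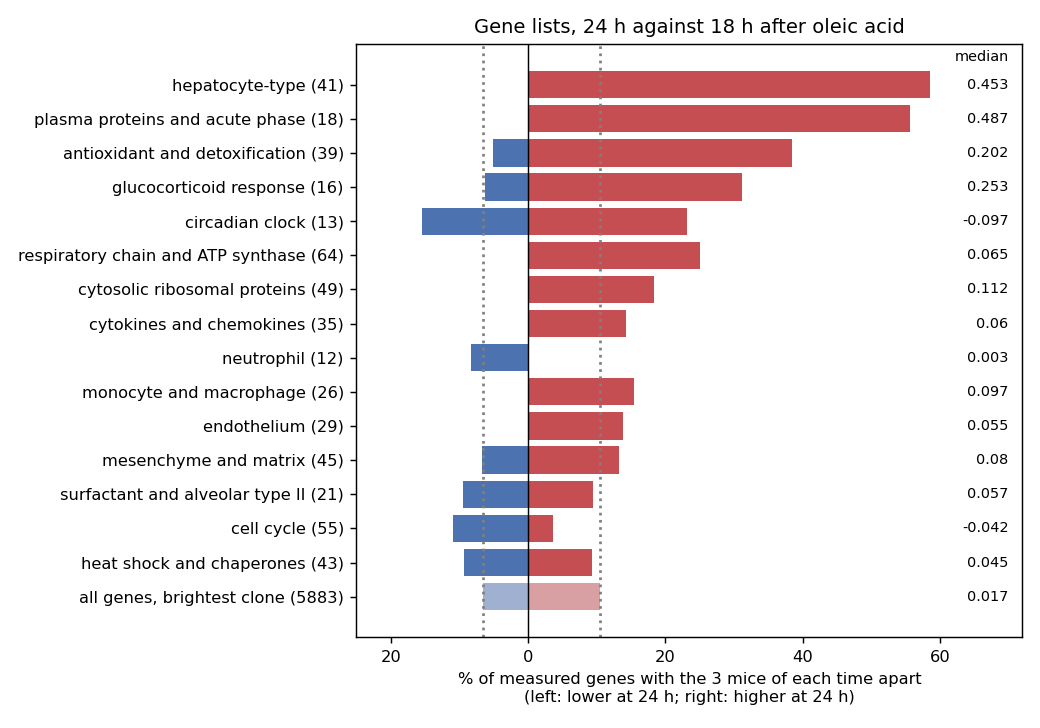
Share of the measured genes of each list whose 3 mice at 24 hours lay all above (right, red) or all below (left, blue) the 3 mice at 18 hours, in percent, with the number measured in parentheses and the median log2 difference at the right. Dotted lines mark the shares over all 5883 genes, 10.4% and 6.6%. The hepatocyte-type list was drawn up after the values were seen.

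Across the 40 lists used, which cover lung cell types, blood cells, signalling and metabolism, 2 held a clone that passed the test, the clock list (Tef) and the list of plasma proteins and acute phase (2 members, among them Hpxn). The latter had 18 genes measured and a median of 0.487, the highest of the 40 lists. Of the 18, 10 (55.6%) were apart and higher and 0 lower, against 10.4% and 6.6% of all genes. This list shares members with the hepatocyte-type list, among them Hpxn, Apoh, Fga, Trf, Apoc1, Ttr and Ahsg. The counts of both lists are therefore not separate results. The lowest median was that of the clock list. The acute phase genes Saa3 (7.77 to 7.97 and 7.98 to 8.43), Lcn2 (9.70 to 10.08 and 9.77 to 10.32) and C3 (9.99 to 10.35 and 10.27 to 10.49) did not pass the test.
Of 64 genes of the respiratory chain and ATP synthase, 16 (25.0%) were apart and higher and 0 lower, with a median of only 0.065. Of 49 cytosolic ribosomal protein genes 9 (18.4%) were apart and higher and 0 lower, with a median of 0.112. The shares over all genes were 10.4% and 6.6%. Among bright genes, 14 of 58 and 9 of 48 were apart and higher and 0 lower, against 310 higher and 134 lower of all 2172. With the fitted signal, the first of these lists had 8 (12.5%) higher and 2 (3.12%) lower, against 8.4% and 6.61% of all genes. With median centring the ribosomal list had 2 (4.08%) higher and 0 lower, against 10.3% and 6.83%.

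No immune cell list held a clone that passed. Of 12 neutrophil genes, 0 were apart and higher and 1 (8.33%) lower, against 10.4% and 6.6% of all genes, with a median of 0.003. The neutrophil alarmin genes S100a8 and S100a9 were at 9.98, 10.60 and 10.45 and at 10.82, 11.10 and 11.47 at 18 hours, and at 10.95, 9.63 and 11.32 and at 11.73, 10.52 and 12.06 at 24 hours. Both overlapped, with P7L1 the lowest and P8L1 the highest of the 6 mice in each gene. Of 35 cytokine and chemokine genes 5 (14.3%) were apart and higher and 0 lower, with a median of 0.060, and of 26 monocyte and macrophage genes 4 (15.4%) were apart and higher and 0 lower, with a median of 0.097. These shares lie near those of all genes. The hemoglobin genes Hba-a1 and Hbb-b1 stood at 14.38 to 14.41 in all mice in their brightest clones, at the highest values of the microarrays, where no difference can be measured.

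Lower levels at 24 hours were less marked, and no bright clone that was lower passed the test. The 2 called clones that fell were not bright, and the limit on all 6 mice is harder to reach for a clone that fell. The 6 bright clones without overlap that came nearest had an adjusted p of 0.201 to 0.283. They were Tnfsf5ip1 (now Psmg2), a proteasome assembly chaperone (10.31 ± 0.11 and 9.71 ± 0.14), Zfp367 (11.48 ± 0.14 and 10.79 ± 0.22), the phosphatase gene Ppm1g (10.03 ± 0.19 and 9.36 ± 0.19), Phactr1 (10.33 ± 0.24 and 9.63 ± 0.19), the keratin gene Krt1-19 (now Krt19; 10.81 ± 0.04 and 10.39 ± 0.05) and Sall4 (9.48 ± 0.10 and 8.99 ± 0.12). Mice were apart in this direction in 5.98% of all bright clones, and single microarrays overlapped in 3 of the 6.

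Of the contractile genes of smooth muscle, picked after their values were seen, some were apart and lower. Acta2, smooth muscle actin, was at 10.47, 9.99 and 10.57 at 18 hours and at 9.16, 9.72 and 9.87 at 24 hours (adjusted p = 0.345). Tagln, transgelin, was at 10.27, 10.13 and 10.27 and then at 9.37, 10.01 and 9.69 (adjusted p = 0.364), and Cnn1, calponin, at 10.37 to 10.56 and 9.90 to 10.23 (adjusted p = 0.437). Des, Tpm1, Tpm2, Smtn and Mylk overlapped, and the mean differences of Tpm1 (0.20) and Mylk (0.34) were above 0. Of all 45 mesenchyme and matrix genes, 6 (13.3%) were apart and higher and 3 (6.67%) apart and lower, near the 10.4% and 6.6% of all genes, with a median of 0.080. Among those that were higher, Timp3, an inhibitor of metalloproteinases, was at 10.79 to 11.22 and 11.55 to 11.85 (adjusted p = 0.194), Postn, periostin, at 10.13 to 10.44 and 10.56 to 10.93 (adjusted p = 0.337) and Dcn, decorin, at 11.09 to 11.26 and 11.50 to 11.73 (adjusted p = 0.337).

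Of the 6 candidate genes of lung injury that the study discusses, none passed. Smad7, the inhibitor of TGF-beta signalling, was at 5.68, 5.82 and 5.49 at 18 hours and at 6.24, 6.33 and 6.02 at 24 hours without overlap, but far below the limit of bright clones (difference 0.53, SE 0.14, adjusted p = 0.317). Ace, the angiotensin-converting enzyme of the endothelium, was at 9.02 to 9.49 and 9.40 to 9.73, and the type II cell genes Slc34a2 (12.17 to 12.31 and 12.20 to 12.77), Napsa (10.10 to 10.24 and 10.12 to 10.57) and Sftpd overlapped as well. Fasn, fatty acid synthase, was at 9.21 to 9.99 and 9.23 to 9.50. Of 21 surfactant and type II cell genes measured, 2 (9.52%) were apart and higher and 2 apart and lower, near the 10.4% and 6.6% of all genes, with a median of 0.057.

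Physiological serum mice allowed the same times to be compared without OA, with 2 microarrays at 18 hours, taken as 2 mice, and 1 at 24 hours, on values normalized anew from the intensities. All 6 clones that rose after OA were higher in the serum mouse at 24 hours than in both at 18 hours, and both that fell were lower. Over all genes, 30.3% were above both and 39.8% below both in that 1 mouse. Gc was at 6.22 and 6.82 at 18 hours and at 10.07 at 24 hours, Hpxn at 7.47 and 7.95 and then at 10.99, Mat1a at 7.84 and 8.07 and then at 10.41, and Alb1 at 8.72 and 8.42 and then at 12.82. Tef was at 9.62 and 9.52 and then at 10.72, and Arntl at 8.50 and 8.81 and then at 7.65. Clock was at 9.85 and 9.97 and then at 9.80. Gm129, which was higher at 24 hours after OA, was at 10.06 and 10.24 and then at 9.92 in the serum mice. Among the 13 clock genes 5 (38.5%) were above both serum mice at 18 hours and 4 (30.8%) below both, not far from the shares over all genes. Of the 41 hepatocyte-type genes, 35 (85.4%) were above both serum mice at 18 hours and 2 (4.88%) below both, with a median difference of 1.08 against -0.034 over all genes.

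The difference between 24 and 18 hours after OA was tested against that after serum in 1 fit, which assumes that the lone serum mouse varies like the others. Between the serum mice alone, 57 clones (0.748%) passed. Of 7625 clones 9 (0.118%) differed. Hpxn was the only one of the 8 called clones among them, with a difference of 1.12 after OA and 3.28 after serum on these values (difference of differences -2.17, SE 0.27, adjusted p = 0.0147). For Tef the difference was 1.38 after OA and 1.14 after serum (adjusted p = 0.776), for Gc 1.72 and 3.56 (adjusted p = 0.126) and for Alb1 1.72 and 4.25 (adjusted p = 0.181). A p above the threshold does not show that OA and serum mice behaved alike, and time of day, which the labels do not give, cannot be told apart from time after injection in either set.

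**Figure D5:**
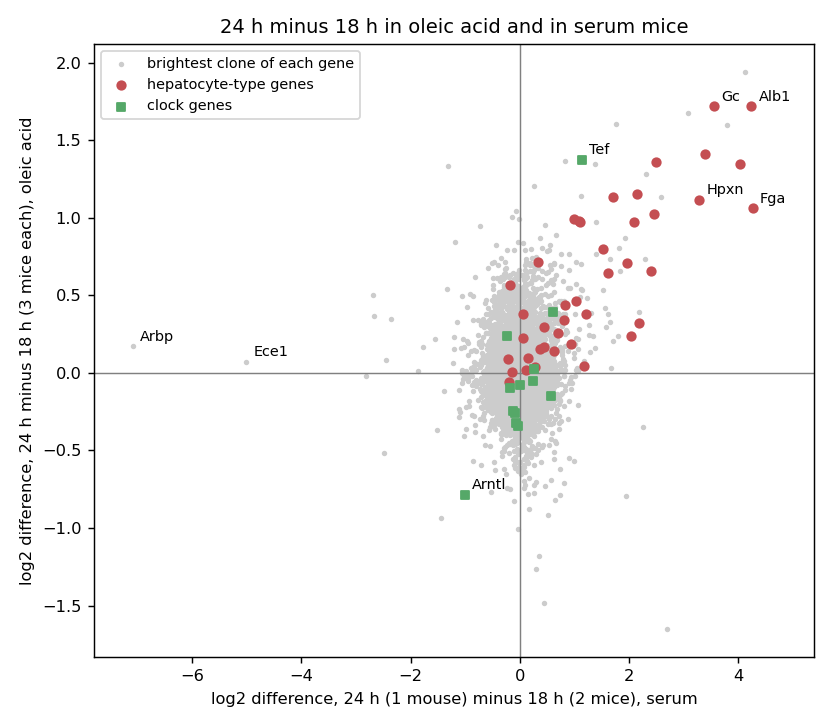
Log2 difference between 24 and 18 hours after OA (vertical, 3 mice each) against the same difference after serum (horizontal, 1 mouse and 2 mice), for the brightest clone of each of 5883 genes. Red points are hepatocyte-type genes and green squares clock genes. Gc (1.72 after OA, 3.56 after serum), Alb1 (1.72 and 4.25) and Hpxn (1.12 and 3.28) lie at the upper right, Tef above 1 on both axes, and Arbp and Ece1 far to the left at 24 hours after serum.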

How the data were processed

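Lung RNA was labelled with 33P and hybridized to nylon cDNA microarrays (MUSV29K, 9984 spots). The authors deposited spot intensity on a linear scale, quantified from images with Bzscan2, and a table of log2 values that they had quantile-normalized. Of its 51 OA columns 1 at 1.5 hours was left out, since its mouse code also stands on microarrays at 4 hours, and its 5 serum columns were not used. Genome build and annotation are not given in the sources used here. Spots were named by the Gene entry of the microarray files. After removal of controls, of 512 empty spots and of 1647 unnamed spots there were 7625 clones of 5883 symbols, of which 5778 were found in RefSeq (GRCm38.p6). Microarrays of 1 mouse were averaged, so mice are the replicates, and no serum values were subtracted.

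Groups were compared with lmFit and eBayes of limma 3.58.1 in R 4.3.3, with Benjamini-Hochberg adjustment over all clones at 0.05. Serum mice, OA mice and their difference were compared on log2 intensity (floor 1) after quantile normalization over 60 microarrays. The serum microarrays at 18 hours were taken as 2 mice, which the methods allow but do not state. The test was checked on simulated data of 7625 clones, where 20, 37, 47 and 50 of 50 clones changed by 0.5, 1, 1.5 and 2 on the log2 scale were recovered. There 159 clones were called, 5 of them unchanged. With 8 calls in the real data the adjustment was stricter, so these shares do not carry over. Named clones were the called bright clones, the 6 bright clones nearest to a call where fewer were called in a direction, called members of each list, cell type markers and the study's candidate genes. Other genes were named after their values were seen, and a few genes are not reported here. Members and lists were chosen with earlier results of these data known. The number of microarrays limits the precision. Alternatives changed the signal, scaling, mice, variance model and filter. Figures were drawn with matplotlib 3.10.9 in Python 3.11.15.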

Additional observations from a re-analysis of the deposited data

Results flagged for a closer look

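In 9 clones the difference between 24 and 18 hours after OA differed from that after serum (limma, adjusted p between 3.57e-05 and 0.0147). The difference of differences was 7.26 for Arbp, -3.95 for Spg7, 5.08 for Ece1, 2.80 for Thrap6, 3.03 for Smarca3, 3.03 for Tgfbrap1, 2.09 for Waspip, 2.80 for Pcyox1 and -2.17 for Hpxn. In 7 of the 9 the single serum microarray at 24 hours held the lowest of the 9 mice, for example Arbp, the ribosomal protein gene now called Rplp0, at 6.27 against 12.76 to 13.73 in the other mice. A second Arbp clone was at 11.73 on the same microarray. Of the 9 clones 6 lie between positions 1348 and 1388 of the spot index, a stretch with 36 tested clones. No clone of the 9 other than Hpxn was called between 24 and 18 hours after OA.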

How the results depend on the processing

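The 8 clones called between 24 and 18 hours became 0 with the fitted signal (542 at an unadjusted p under 0.05) and 2 with all OA mice in the fit. The count was 1 with only the microarrays whose titles end in OA, 18 with bright clones alone and 16 with trend and robust variances. It was 13 without the 2 dim microarrays at 18 hours, an alternative chosen after seeing the data. With microarrays as observations and the mouse as a random block there were 70. Adding the title ending (AO or OA, not explained by the labels) to that fit as a covariate gave 55. In the fit with 70, the consensus correlation of microarrays of 1 mouse was 0.0569, so these counted nearly as separate replicates. Leaving out 1 mouse gave 0 to 16. The 9 clones that differed between OA and serum became 40 with the fitted signal, 3 with all mice and 2 with bright clones alone, and leaving out 1 mouse gave 8 to 26, the highest without the first serum mouse at 18 hours. For the named clones, 305 of the alternative values kept direction and side of the threshold, 76 lost the call and 58 gained one, and Zfp367 turned to 0.0217 with microarrays ending in AO alone. The cause was not tested. No paired analysis was possible because the mice at 18 and 24 hours share no number.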

Other observations

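Clones of 1 gene did not always agree. Of the 2 Ndufb7 clones, 1 was at 10.87, 11.09 and 11.77 at 18 hours and at 12.80, 12.79 and 12.82 at 24 hours, and the other at 9.71, 9.70 and 10.20 and then at 9.74, 9.56 and 9.64. The first was also at 9.20 and 9.61 in the serum mice at 18 hours and at 13.20 in the serum mouse at 24 hours. The 1 clone of Tcea1, a transcription elongation factor, was at 9.35, 9.57 and 10.69 and then at 11.67, 11.86 and 11.76, and in serum mice at 7.43 and 8.00 and then at 11.84. A Rps16 clone had the largest mean difference of all bright clones, 2.44, through P12L1 alone (13.29, 12.60 and 5.71 at 18 hours and 12.91, 12.51 and 13.51 at 24 hours), and 2 other clones of the gene differed by 0.12 and 0.04.

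Among genes of chaperones and protein folding, those of the endoplasmic reticulum did not lie one way. Hspa5, the chaperone BiP, was at 13.08 to 13.42 at 18 hours and at 12.55 to 13.01 at 24 hours, and Pdia3, a disulfide isomerase, at 8.92 to 9.44 and 9.59 to 10.11, neither passing the test. Of 55 cell cycle genes, 2 (3.64%) were apart and higher and 6 (10.9%) apart and lower, against 10.4% and 6.6% of all genes, with a median of -0.042, and Smc2l1 (now Smc2), a condensin subunit, was the widest at 9.70, 10.12 and 10.30 and then 9.10, 8.96 and 9.56.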
